A study of Homo sapiens with 4 samples.

Results

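SMAD3 binding was examined as all 7184 rows of the peak list from the SMAD3 chromatin immunoprecipitation (ChIP) library against its own input, out of 16650 rows deposited for the series. No row was left out. The cells were A549, an established lung adenocarcinoma line, made to carry ATOH8 stably by a retrovirus. Both libraries behind the list came from these ATOH8-carrying cells, 1 pulled down with a SMAD3 antibody and 1 of input chromatin with no antibody, and the cells grew in medium with serum. No library of cells without added ATOH8 was compared here, the labels name no added TGF-beta, and whether the carrying cells are 1 clone or a pool is not given. After removal of repeated positions the ChIP library held 16857119 tags and the input 17215727. With 1 library a side there is no replicate spread, so every value below describes these libraries and nothing was tested. A peak list holds no expression values, so the lung epithelial markers of A549 could not be checked.

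SMAD3 is a transcription factor of the transforming growth factor beta (TGF-beta) pathway. Activated TGF-beta and activin receptors phosphorylate SMAD2 and SMAD3, which join SMAD4, enter the nucleus and bind short DNA motifs, often beside partner factors such as AP-1 proteins. In epithelial cells the pathway is known for growth arrest through cell cycle inhibitors and for the epithelial-mesenchymal transition. ATOH8 belongs to the basic helix-loop-helix (bHLH) proteins, and the series title places it in 1 complex with SMAD3 acting on the cell cycle.

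Some SMAD3 peaks reached into promoters. How much of the genome the windows below take up was not computed, so their count does not show whether promoters are favoured or avoided. A promoter window is taken here as the 250 bases before to 50 after a transcription start site, from RefSeq (GRCh38.p14). Of 35116 such windows, 82 were touched by a SMAD3 peak, through 70 peaks, and they belonged to 53 protein-coding genes and to non-coding genes. None of these peaks had a q under 0.05, beside 7.89% of all 7184 peaks and 2.74% of those with the summit inside a protein-coding gene. Their pileups (tags stacked at the summit) ran from 5 to 12. The summit itself lay in 40 of the windows. Those of EEF1A1, DNAAF10, F2RL3, GLYATL1B and SLC39A5 are printed because their peaks have the 5 highest folds among protein-coding windows that hold a summit, with 1 window printed per peak, and that of ALKBH5 because the highest fold within 1 kb of a start site is in a peak that begins 425 bp after its own. Capitals mark the SMAD box CAGAC on either strand (GTCTG on the printed one), and sequences run 5′ to 3′ on the gene's own strand.
ALKBH5, chr17:18183578-18183877, plus strand: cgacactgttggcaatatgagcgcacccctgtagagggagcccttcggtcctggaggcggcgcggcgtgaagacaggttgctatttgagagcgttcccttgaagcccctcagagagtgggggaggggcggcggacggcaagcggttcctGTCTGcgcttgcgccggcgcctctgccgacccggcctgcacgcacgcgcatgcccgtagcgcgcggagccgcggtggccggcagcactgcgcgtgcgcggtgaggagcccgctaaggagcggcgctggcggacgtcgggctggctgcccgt
EEF1A1, chr6:73520983-73521282, minus strand: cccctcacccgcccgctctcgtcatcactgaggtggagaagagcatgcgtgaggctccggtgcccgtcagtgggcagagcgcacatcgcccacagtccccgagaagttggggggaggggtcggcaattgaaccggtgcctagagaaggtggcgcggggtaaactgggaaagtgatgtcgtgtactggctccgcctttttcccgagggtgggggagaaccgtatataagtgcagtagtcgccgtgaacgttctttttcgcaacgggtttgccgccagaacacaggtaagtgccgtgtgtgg
DNAAF10, chr2:68157478-68157777, minus strand: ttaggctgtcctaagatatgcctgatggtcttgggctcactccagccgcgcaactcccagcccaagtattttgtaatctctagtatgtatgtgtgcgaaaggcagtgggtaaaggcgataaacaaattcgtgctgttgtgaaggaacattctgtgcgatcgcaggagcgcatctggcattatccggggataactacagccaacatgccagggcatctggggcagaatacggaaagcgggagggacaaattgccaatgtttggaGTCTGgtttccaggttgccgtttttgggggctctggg
F2RL3, chr19:16888749-16889048, plus strand: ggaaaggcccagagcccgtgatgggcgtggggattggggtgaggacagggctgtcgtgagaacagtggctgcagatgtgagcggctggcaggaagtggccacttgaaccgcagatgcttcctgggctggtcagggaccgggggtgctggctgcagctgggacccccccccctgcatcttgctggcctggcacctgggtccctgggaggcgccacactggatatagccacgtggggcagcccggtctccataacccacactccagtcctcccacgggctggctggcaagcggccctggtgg
GLYATL1B, chr11:59086057-59086356, plus strand: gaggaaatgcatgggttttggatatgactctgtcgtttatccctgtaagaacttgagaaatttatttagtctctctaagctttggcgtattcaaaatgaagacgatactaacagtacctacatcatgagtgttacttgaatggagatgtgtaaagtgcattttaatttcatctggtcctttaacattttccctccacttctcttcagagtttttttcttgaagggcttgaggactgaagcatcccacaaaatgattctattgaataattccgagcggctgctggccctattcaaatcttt
SLC39A5, chr12:56229801-56230100, plus strand: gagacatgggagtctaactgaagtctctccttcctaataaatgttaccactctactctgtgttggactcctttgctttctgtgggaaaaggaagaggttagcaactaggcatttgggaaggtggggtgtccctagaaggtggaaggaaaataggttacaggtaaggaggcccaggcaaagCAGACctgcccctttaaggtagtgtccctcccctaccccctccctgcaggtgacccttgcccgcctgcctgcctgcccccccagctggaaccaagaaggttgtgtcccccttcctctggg

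Of the 5 windows printed for their summit, DNAAF10 and SLC39A5 held 1 SMAD box each and EEF1A1, F2RL3 and GLYATL1B held 0. The ALKBH5 window held 1. Among the 82 windows touched by a peak, 52.4% held CAGAC on either strand, against 45.3% of all 35116 windows. The full palindrome GTCTAGAC was in 0 of the 82 and in 0.202% of all windows. The GC-rich SMAD motif GGCGC was in 56.1% of the touched windows and 48.6% of all. It occurred 5 times in the ALKBH5 window, which is 71.0% G and C. The AP-1 motif TGANTCA was in 8.54% of touched windows and 7.71% of all, and the E-box CANNTG, the bHLH motif, in 70.7% and 68.7%. Motifs were searched on both strands. CAGAC is not contained in GTCTAGAC, and matches of different motifs may share bases. Some windows overlap or coincide, as those of ANG and RNASE4 do, so the same bases can count more than once. The shares describe letters in these windows and no site of binding.

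The peaks at these windows were low. EEF1A1, which encodes a translation elongation factor, had 10 tags on an implied input background of 1.96 tags, a fold enrichment of 3.72, with the summit 66 bp before the start. DNAAF10 and its divergent neighbour PNO1 shared a peak of 7 tags (3.53-fold), and SLC39A5, a zinc transporter gene, had 7 tags (3.43-fold). F2RL3, a thrombin receptor gene, and GLYATL1B also had 7 tags each (3.53-fold). DDR2, a collagen receptor gene, had the highest fold of the promoter peaks, 4.29 with 9 tags and a −log10 q of 1.25, with the summit 93 bp after the start. A peak also covered the start of TGFB2-AS1, a long non-coding RNA beside the ligand gene TGFB2 (7 tags, 3.19-fold). Fold enrichment is the authors' ratio of pileup plus 1 to the local background plus 1, and the background was computed back from both, here and below.

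Of 1562 microRNA hairpins in the RefSeq table, 15 lay within 1 kb of a SMAD3 summit and 1 held the summit, MIR8075. Of all protein-coding genes 11.8% had a summit in the gene or within 1 kb, a window that takes in the whole gene. Among the 15 hairpins, 3 were near a peak with a q under 0.05, and peaks touched MIR8075, MIR8072 and MIR3064. The sequence of MIR8075 is shown because it is the only hairpin touched by a peak with a q under 0.05. The hairpin lies inside CUL4A, the gene of a ubiquitin ligase scaffold, at chr13:113262920-113262999, and the peak had 11 tags, a 5.02-fold enrichment and a −log10 q of 2.54. Capitals mark the seed, bases 2 to 8.
hsa-miR-8075: uGCUGAUGgcagaugucgggucug

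The typical SMAD3 peak was a handful of tags over almost no input. Pileup had a median of 7 tags and quartiles of 6 and 8, and 6224 peaks (86.6%) had 5 to 9 tags. The most frequent pileups were 7 tags (2121 peaks) and 6 tags (1871 peaks). Only 282 peaks (3.93%) had 20 tags or more, 97 had 50 or more and 45 had 100 or more. The median fold enrichment was 3.09 (quartiles 2.77 and 3.53), 77 peaks reached a fold of 5, which is 1.07%, and 6 reached a fold of 10.

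The implied input background took few values. In 2056 peaks (28.6%) it equalled the lowest in the list, 1.27 tags, which is also the genome-wide floor computed from the tag total, fragment length and effective genome size in the file header. Another 1050 peaks stood at 1.96 tags and 213 at 2.94 tags, the values of 2 and 3 input tags after scaling by the library totals. For peaks at the floor the fold is set by the pileup alone, so peaks of equal pileup share 1 fold. Only 302 peaks (4.20%) had an implied background of 5 tags or more and 42 had 50 or more.

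The call threshold was permissive, and the list stops where it was set: the weakest peak had a p of 0.00622 under a cutoff of 0.0065, and peaks beyond it were not listed. Of the 7184 peaks, 567 (7.89%, exact Clopper-Pearson 95% interval 7.28 to 8.54%, counting error only) had a q under 0.05, and 3685 (51.3%) had a −log10 q of 0. Those with a q under 0.05 had a median of 12 tags and a median fold of 4.40, and none had fewer than 9 tags.

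High pileup and high fold were different things here. Peaks of 5 to 9 tags had a median implied background of 1.41 tags and a median fold of 3.09. Those of 10 to 49 tags stood on 2.94 tags at a median fold of 3.46, and the 97 peaks of 50 tags or more stood on 45.0 tags at a median fold of 1.87. Across peaks, the Spearman coefficient was 0.488 between pileup and implied background and 0.457 between pileup and fold (n = 7184 peaks of 1 library pair, which share both libraries, and the background is computed from the other 2 values). Of the 97 peaks of 50 tags or more, 63 had a q under 0.05.

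**Figure D1:**
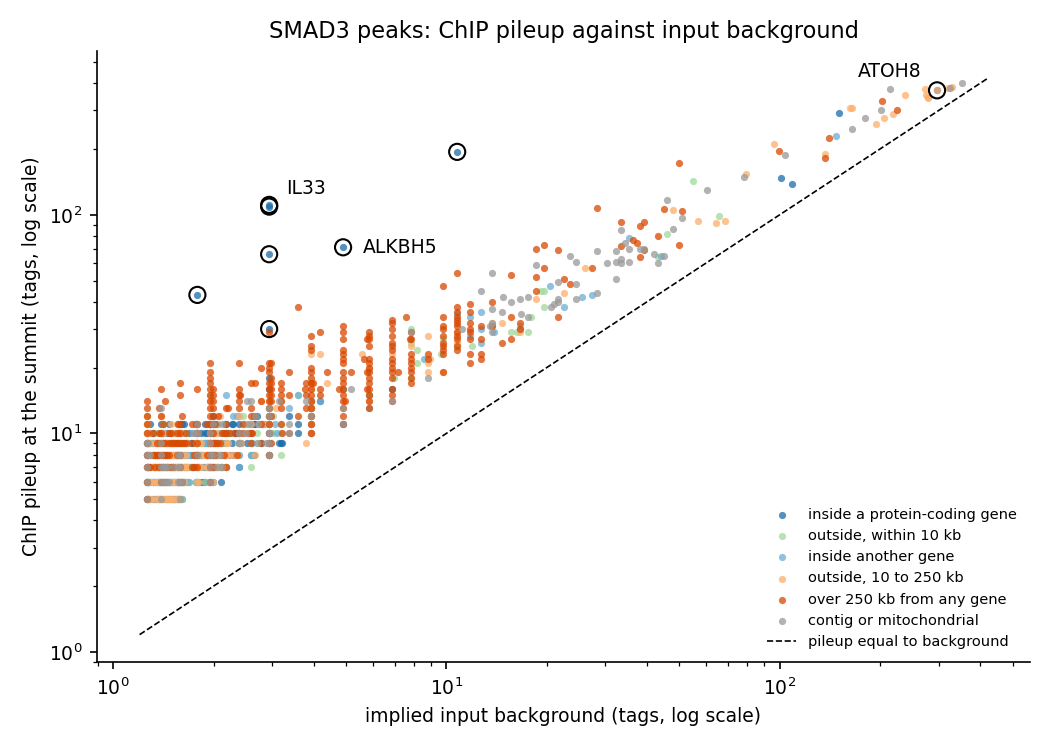
ChIP pileup at the summit (tags, log scale) against the implied input background (tags, log scale), 1 point for each combination found among the 7184 SMAD3 peaks, coloured by place, with the dashed line where both are equal and circles on the peaks of IL33, ALKBH5 (strongest peak) and ATOH8. Most points of high pileup run along the dashed line, while the IL33 peaks, at 30 to 194 tags, and the ALKBH5 peak, at 71 tags, stand above most other points of like background.

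Peaks were short. The shortest length, 203 bp, is the fragment length that the caller estimated and also its minimum, and 2988 peaks (41.6%) had exactly that length. The median was 219 bp, the upper quartile 279 bp and the longest peak 1790 bp. Only 56 peaks reached 500 bp and 1 reached 1000 bp. Length rose little with pileup, from a median of 213 bp at 5 to 9 tags to 243 bp at 10 to 49 and 251 bp at 50 or more (Spearman coefficient 0.121 over the 7184 peaks). Summits lay a median of 37 bp from the peak's centre, and 71.9% of them lay nearer to the centre than to an end of the peak.

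SMAD3 summits lay in genes, at start sites and in the space between genes. How much of the genome each place takes up was not computed, so the shares below do not show whether a place is favoured or avoided. On chromosomes 1 to 22, X and Y there were 6979 peaks. The summit lay inside a protein-coding gene in 2885 (41.3%, 40.2 to 42.5%), inside another annotated gene alone in 893 (12.8%), outside but within 10 kb of a gene in 1029 (14.7%), 10 to 250 kb away in 1344 (19.3%) and over 250 kb from any gene in 828 (11.9%, 11.1 to 12.6%). Exons and introns could not be told apart with the gene table used. Of 6546 peaks on chromosomes with entries in the start-site table, 168 (2.57%, 2.2 to 2.98%) had the summit within 1 kb of a protein-coding start site. These 168 had a median of 7 tags, as the whole list. Of them 4 had a q under 0.05, beside 567 of 7184 in the whole list and 79 of 2885 inside protein-coding genes.

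Place and pileup went together. Inside protein-coding genes lay 45.1% (43.9 to 46.4%) of the peaks of 5 to 9 tags, 18.3% (15.4 to 21.5%) of those of 10 to 19 and 1.23% (0.149 to 4.36%) of those of 20 to 49. At higher pileup the share was larger again, 6.67% (2 of 30, 0.818 to 22.1%) at 50 to 99 tags and 20% (7 of 35, 8.44 to 36.9%) at 100 or more, and those 9 peaks were in IL33, LOC102724250, ALKBH5 and ATOH8. The share over 250 kb from any gene was 5.16% (4.62 to 5.74%), 57.5% (53.5 to 61.3%) and 70.6% (62.9 to 77.4%) in the same order, then 63.3% and 25.7% in the last 2 classes. From 100 tags upwards the place shifted to 10 to 250 kb from a gene, with 17 of 35 peaks. Input moved with pileup: peaks of 20 to 49 tags that lay over 250 kb from genes had a median implied background of 7.75 tags and a median fold of 2.97, against 1.59 tags and 3.35-fold for those of 5 to 9 tags at the same distance. The part of input depth in the shift was not tested. Of the 527 peaks with a q under 0.05 on these chromosomes, 293 (55.6%, 51.2 to 59.9%) were over 250 kb from any gene and 79 (15%, 12.1 to 18.3%) inside a protein-coding gene. No annotation of repeats or centromeres was used, so how many of the distant peaks lie in repeated sequence is not known.

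**Figure D2:**
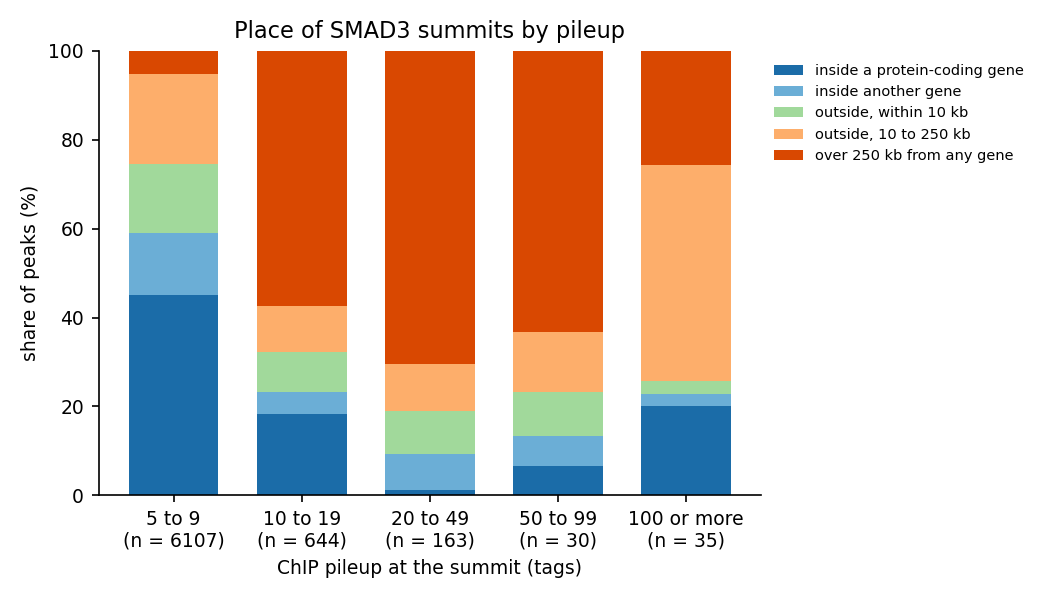
Share of SMAD3 peaks (%) on chromosomes 1 to 22, X and Y by place of the summit, for 5 classes of pileup (tags), with the number of peaks in each class. Peaks inside protein-coding genes make up 45.1% of the lowest class, 1.23% of the class of 20 to 49 tags, where 70.6% lie over 250 kb from any gene, and 20% of the highest class.

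Inside protein-coding genes, peaks of 20 tags or more were found at 4 genes. There were 11 such peaks among 228 of that pileup on assigned chromosomes: 6 in IL33, 3 in LOC102724250, 1 in ALKBH5 and 1 in ATOH8. The next highest peak inside a protein-coding gene had 18 tags. These loci fell into 2 kinds by input, IL33 and ALKBH5 with an implied background of 1.79 to 10.8 tags, and LOC102724250 and ATOH8 with 101 to 297.

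IL33 encodes interleukin-33, a nuclear alarmin cytokine of the interleukin-1 family made by epithelial and endothelial cells. The gene spans 6215149 to 6257983 of chromosome 9 (42.8 kb, plus strand), and the non-coding gene LOC107987046 overlaps all 6 of its peaks. Its 6 peaks had, from the start of the gene, pileups of 30, 111, 109, 66, 43 and 194 tags, on implied backgrounds of 2.94, 2.94, 2.94, 2.94, 1.79 and 10.8 tags. The 1 with the highest pileup (6255860 to 6256281) was also the 1 with the highest input, 11 input tags before scaling against 3 at 4 of the others, and its fold, 16.6, was below those of the peaks at 6250349 to 6250720 (28.4) and 6251013 to 6251380 (27.9). All 6 had a −log10 q of 14.6 or more.

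The IL33 summits were set towards the end of the gene. The first lay 26.6 kb from the start (6241576 to 6241897, 7.87-fold). The other 5 lay 35.4 to 40.9 kb from it, 82.6 to 95.5% of the way along the gene, with summits 652, 1725, 1591 and 1554 bp apart. None was within 1 kb of a start site, the nearest being 25913 bp away. Each was 322 to 422 bp long, so the 5 are separate short peaks over a stretch of 5933 bp. The gene table used gives no exons, so whether the IL33 peaks lie on exons is not known. The source of their tags was not tested.

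**Figure D3:**
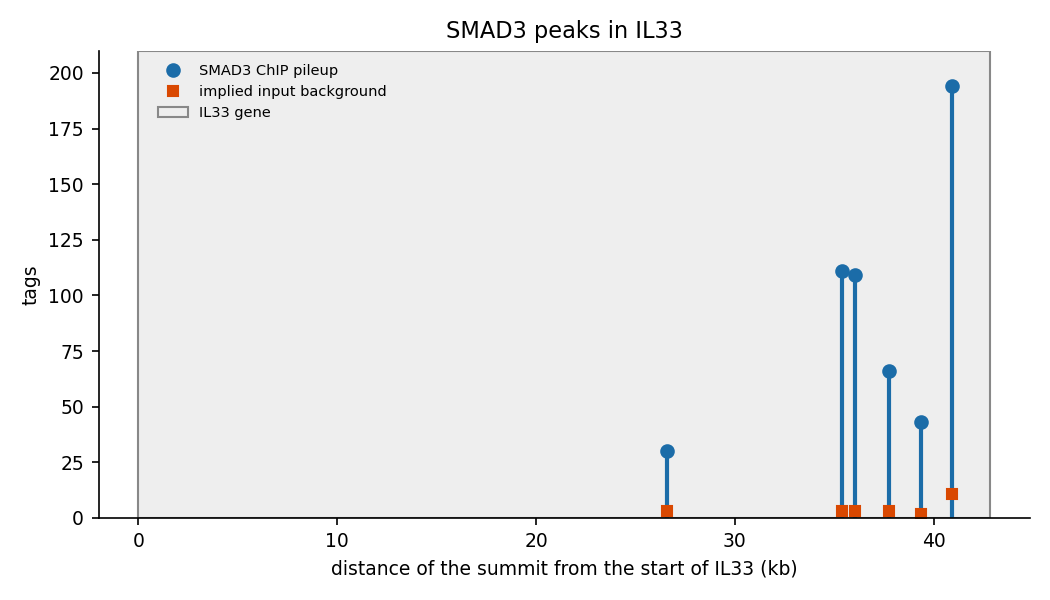
SMAD3 ChIP pileup (tags, circles) and implied input background (tags, squares) at the 6 peaks in IL33, by distance of the summit from the start of the gene (kb), with the gene shaded. Pileup is 30 to 194 tags and background 1.79 to 10.8 tags, and 5 of the 6 summits lie between 35.4 and 40.9 kb.

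ALKBH5 encodes an RNA demethylase that removes N6-methyladenosine. Its gene (chromosome 17, 18183828 to 18209954, plus strand) carried a peak at 18184253 to 18185018 with 71 tags on 4.90, a fold of 12.2 and a −log10 q of 49.6. At 766 bp it was longer than each IL33 peak, and the summit lay 878 bp after the start site. A lower peak stood 23110 bp after the start (18206813 to 18207026), with 16 tags on 2.94, 4.32-fold and a −log10 q of 2.77. Whether either ALKBH5 peak lies on an exon is not known, and the source of their tags was not tested.

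ATOH8 is the gene that the retrovirus also delivered. Its 1 peak (chromosome 2, 85754294 to 85754848) had 371 tags, the highest pileup inside any protein-coding gene, on an implied background of 297 tags. The fold was therefore 1.25 and the −log10 q 0.582. The summit was 725 bp after the start site. The median background in the list was 1.47 tags, so this stretch was covered deeply in the input library as well. The labels do not say whether tags at ATOH8 come from the native gene or the retroviral copy, and the 2 cannot be told apart here.

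LOC102724250 on chromosome 1 contains the mitochondrial pseudogenes MTND2P28 and MTCO1P12, copies of mitochondrial genes in nuclear DNA. Its 3 peaks had 293 tags (629685 to 629998, in MTND2P28, 1.94-fold), 139 tags (630805 to 631101, 1.28-fold) and 147 tags (631898 to 632262, in MTCO1P12, 1.45-fold), on 151, 109 and 101 background tags. Tags from near-identical copies could be split or shared between them and mitochondrial DNA, so these values are uncertain.

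Ranked by pileup on chromosomes 1 to 22, the 25 highest peaks ran from 173 to 383 tags and lay mostly away from genes. Only 3 were inside a protein-coding gene (ATOH8, LOC102724250 and IL33), 1 in another gene (LOC112268408, chromosome 18, 230 tags, 1.55-fold), 15 were 10 to 250 kb from a gene and 6 were over 250 kb away. From protein-coding genes, 21 of the 25 were over 100 kb away. Whether these 25 lie in repeated or centromeric sequence, where tags are hard to place, was not tested. Their implied backgrounds had a median of 203 tags, 22 had a fold under 2, and 14 had a q under 0.05.

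The 25 peaks came from 10 chromosomes, with 7 on chromosome 16, 6 on chromosome 17 and 5 on chromosome 1. On chromosome 16 the highest of all, 383 tags at 46398590 to 46398954, lay 180 kb from SHCBP1 on a background of 329 (1.16-fold). Next to it stood peaks of 381 tags (46399298 to 46399581, 1.19-fold), 378 tags (46387697 to 46388046, 1.38-fold) and 352 tags (46386319 to 46386572, 1.48-fold). The pseudogene ANKRD26P1 was the nearest gene of any kind to these 4. A second group on the same chromosome, 372, 309 and 307 tags between 34576376 and 34592866, lay 187 to 203 kb from LOC124903767, at 1.26- to 1.88-fold.

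On chromosome 17, 4 peaks of 260 to 346 tags (26881247 to 26885536) and 2 of 330 and 303 tags (26603790 to 26604024 and 26619570 to 26619802) had WSB1 as the nearest protein-coding gene, 409 to 690 kb away, at 1.24- to 1.63-fold. Chromosome 1 held peaks of 353, 341 and 189 tags between 143194953 and 143233201, 669 to 707 kb from the histone gene H3-7, and a peak of 181 tags at 125181582 to 125181795. Single peaks lay 765 kb from EMB (chromosome 5, 225 tags, 1.59-fold), 647 kb from CWH43 (chromosome 4, 210 tags, 2.18-fold), 2505 kb from LOC124904970 (chromosome 20, 196 tags, 1.95-fold) and 402 kb from PROS1 (chromosome 3, 173 tags, 3.42-fold). At such distances the gene named is a landmark and no target.

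Ranking by fold gave another set. Of the 25 peaks with the highest fold on the same chromosomes, 1 (in IL33, 194 tags) was also among the 25 highest by pileup. The 10 highest by fold were the 6 of IL33, the strongest of ALKBH5 and 3 peaks far from genes. Those 3 were at chromosome 4, 726 kb from DCUN1D4 (38 tags, 8.52-fold), chromosome 19, 2066 kb from ZNF254 (29 tags, 7.62-fold), and chromosome 17, 2471 kb from KCNJ18 (21 tags, 7.44-fold). In all, 7 of the 25 were in IL33 or ALKBH5 and 18 lay over 250 kb from any gene. Whether those 18 lie in repeated or centromeric sequence, where tags are hard to place, was not tested. These 25 had implied backgrounds of 1.27 to 10.8 tags and a q under 0.05 throughout. Of the 77 peaks of 5-fold or more, 56 were over 250 kb from any gene and 10 inside a protein-coding gene.

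Near genes and over a low input, pileup fell off quickly. With the summit in or within 10 kb of a protein-coding gene and an implied background under 5 tags, the 6 highest peaks were 5 of IL33 and 1 of ALKBH5, at 111 to 30 tags. They were followed by SLCO5A1, an organic anion transporter gene (chromosome 8, 69690015 to 69690261, 18 tags, 4.83-fold, −log10 q 4.13), the lower ALKBH5 peak (16 tags) and HBA2, an alpha-globin gene (chromosome 16, 173916 to 174216, 331 bp outside the gene, 15 tags, 5.41-fold, −log10 q 4.17). The alpha-globin genes lie close together and are near-identical in part, so the peak's owner is uncertain.

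The other 6 of those 15 peaks had 12 to 14 tags. WDR87 and POU2F2, a B-cell POU factor, each had 14 tags at 3.05-fold. IFNL1, an interferon lambda gene, had 14 tags at 2.90-fold with the summit 209 bp from a start site. SPINT2, a protease inhibitor gene, and FAM118A had 13 tags at 2.85-fold. AHNAK2 had 12 tags at 4.35-fold with the summit 245 bp from a start site. Of these 6, AHNAK2 alone had a q under 0.05, with a −log10 q of 1.90.

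Counted by gene, 3224 of 20037 protein-coding genes (16.1%) had a summit inside or within 10 kb, and 2581 of these had 1 peak. Longer genes had more: 6.97% in the lowest quartile of length (up to 8.54 kb) against 31.0% in the highest (65.1 kb and more). The genes with the most peaks were MACROD2 (11 peaks over 2058 kb), ADARB2 (8 over 560 kb), and GPHN, KCNH1, NRG1 and PCDH15 (7 each), named after their values were seen. None of their peaks had over 9 tags. IL33 had 6 in 42.8 kb, 9.55 per 100 kb of gene and flanks, against 0.349 to 1.47 at the other 11 of the 12 genes with the most. Those 11 were picked by number of peaks and span 456 to 2058 kb, and the density over all genes was not computed. Only 123 genes (0.614%) had a peak with a q under 0.05 in that window, and 11 (0.0549%) a peak of 5-fold or more. These 11 were IL33, ALKBH5 and its neighbour MYO15A through the same peak, HBA1, HBA2, HBM and HBQ1 through 1 globin peak, GFOD1 (5.29-fold, 11 tags), RBKS (5.24-fold, 11 tags), CUL4A and GNG7 (5.02-fold and 11 tags each).

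TGF-beta pathway genes carried low SMAD3 peaks, at 17.5 to 25% of the genes of each list. Of 17 ligand and receptor genes, 4 had a summit inside or within 10 kb, that is 23.5% beside 16.1% of all protein-coding genes. LTBP1, a latent TGF-beta binding protein, had 5 peaks, the best with 8 tags (3.53-fold). TGFB2, a ligand, had 7 tags (3.19-fold) with the summit 301 bp from a start site, in the same peak that covered the start of TGFB2-AS1. ENG (endoglin), a co-receptor, had 7 tags (3.11-fold). The activin subunit gene INHBA had 6 tags (3.09-fold).

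In the SMAD family 2 of 8 genes had a peak (25%, beside 16.1% of all protein-coding genes). SMAD3 itself had 3, with 7, 9 and 8 tags at 2.51-, 3.14- and 2.82-fold. The 1 of 9 tags (chromosome 15, 67125228 to 67125430) lay 379 bp from an internal start site of the gene. SMAD2 had 1 peak of 8 tags (3.76-fold), and SMAD4, the common partner, and SMAD7, the inhibitory SMAD, had none. Of 20 regulators and partners 5 (25%, beside the same 16.1%) had a peak. They were the ubiquitin ligase genes SMURF1 (3.40-fold) and NEDD4L (3.09-fold) and the acetyltransferase gene CREBBP (3.21-fold, 3297 bp outside). The others were the SUMO ligase genes PIAS4 (3.09-fold) and PIAS1 (3.07-fold, summit 360 bp from a start site). These lists hold long genes, with medians of 77.2 kb for the SMAD family and 84.7 kb for its partners against 24.1 kb for all.

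Of 40 TGF-beta target genes, 7 (17.5%) had a peak, close to the 16.1% of all protein-coding genes. They were VIM (vimentin, 3.89-fold, 3141 bp outside the gene), TGFBI (3.76-fold), ITGAV (4134 bp outside), TPM1, COL1A2, TGM2 and ACTA2. Their pileups were 6 to 8 tags. Among 22 BMP target genes, 5 (22.7%, beside the same 16.1%) had one. Among them were HEY1, a Notch and BMP-responsive bHLH repressor (3.83-fold, 731 bp outside), MSX2 (3.37-fold, 5320 bp outside), BMPER and ATOH8. In neither list did a peak have a q under 0.05, beside 0.614% of all protein-coding genes with such a peak.

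Cell cycle genes differed in share from list to list. Of 33 cyclins, CDKs, E2F and RB factors, 11 (33.3%) had a summit inside or within 10 kb, beside 16.1% of all protein-coding genes. CDK2, an S-phase kinase, was highest at 10 tags (3.72-fold, 5582 bp outside the gene). Next came CDC25C, a mitotic phosphatase gene (8 tags, 3.56-fold, 870 bp outside), and CCNH and RBL2 (7 tags and 3.53-fold each). The rest were E2F7, CDK1, CCND2, RBL1, CCND3, CDK6 and E2F6, with 6 to 9 tags. Those of CCND3 and E2F6 lay 7622 and 6552 bp outside the gene. Of 34 G1/S genes 3 (8.82%) had a peak in this window. Among them were PCNA, the replication clamp (9 tags, 3.14-fold, summit 965 bp from a start site), and LIG1, a DNA ligase gene (2.79-fold, 3494 bp outside). The shares for G2/M genes and inhibitors were close to the 16.1% of all protein-coding genes. Of 41 G2/M genes 7 (17.1%) had one, of which CDC25C and MKI67 (3.35-fold, 7105 bp outside) were highest. Of 20 cell cycle inhibitors 3 (15%) had one, CDKN1C (8 tags, 3.97-fold), GADD45G (3.29-fold) and CDKN1B (2.93-fold), all 4150 to 8206 bp outside the gene, and CDKN1A had none. No cell cycle gene of these lists had a peak with a q under 0.05. Of all protein-coding genes 0.614% had one, a share at which lists of this size would hold few or none.

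The last 3 lists stand beside the same 16.1% of all protein-coding genes. AP-1 and immediate early genes had a peak at 5 of 23 (21.7%), led by FOSL1, an AP-1 subunit (8 tags, 3.27-fold). Epithelial and lung lineage genes had one at 5 of 28 (17.9%), led by the keratin gene KRT8 (9 tags, 3.80-fold, 1314 bp outside). In the interleukin-1 family 2 of 19 (10.5%) had one, IL33 and SIGIRR, an inhibitory receptor (7 tags, 3.21-fold). Over the 280 genes of all 12 lists, 57 (20.4%) had a peak in this window and 1, IL33, a peak with a q under 0.05. The latter stands beside 0.614% of all protein-coding genes. Because the lists and their members were chosen with earlier results of these data known, that comparison is no independent result. The lists had medians of 5.27 to 84.7 kb in gene length, and the part of length in their shares was not tested.

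**Figure D4:**
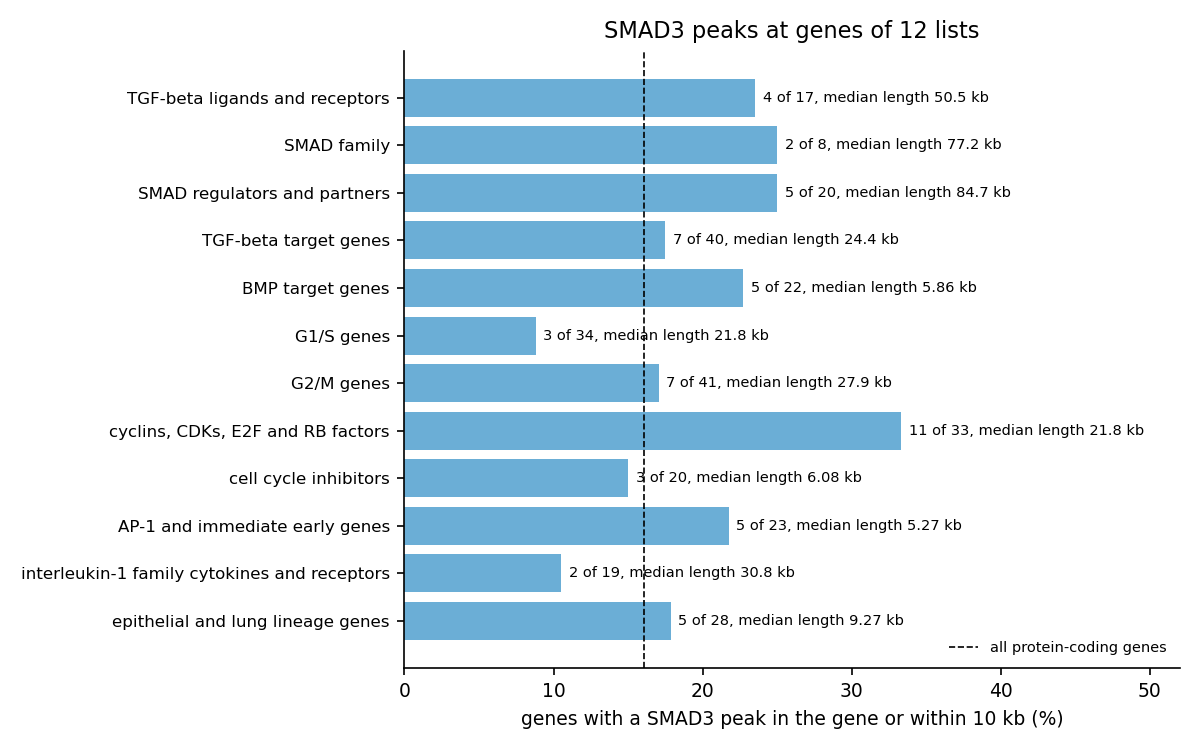
Share of genes (%) with a SMAD3 summit in the gene or within 10 kb in each of 12 lists, with the number of genes and their median length (kb), and the share of all protein-coding genes (16.1%) as a dashed line. Shares run from 8.82% for G1/S genes to 33.3% for cyclins, CDKs, E2F and RB factors.

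Chromosomes differed in density over 10-fold. With chromosome length taken as the position of the last annotated gene, chromosome 20 had 6.03 peaks per Mb, chromosome 17 4.42 and chromosome 19 4.20. Chromosomes 4, 6, 13, 18 and X had 0.468 to 0.586, and the lowest of the other 18 was chromosome 22 at 1.46. Leaving out peaks over 250 kb from any gene, chromosome 20 had 4.85 per Mb and chromosome 13 0.271. Median pileup differed less, from 7 tags on most chromosomes to 9 on chromosome 19 and 10 on chromosome 21.

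Input moved with this density. On the 5 sparse chromosomes 56.2 to 67.1% of the peaks stood at the lowest implied background, against 6.70 to 44.6% on the other 18. The median background was 1.27 tags on each of the 5, 1.74 on chromosome 20 and 2.18 on chromosome 19. The Spearman coefficient between density and median background was 0.784 over 23 chromosomes, which share both libraries, and the background is taken at peaks alone. Its part in the density was not tested. Chromosome 13 had 24 of its 55 peaks (43.6%) over 250 kb from any gene, and chromosome 15 had 3 of 269 (1.12%).

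**Figure D5:**
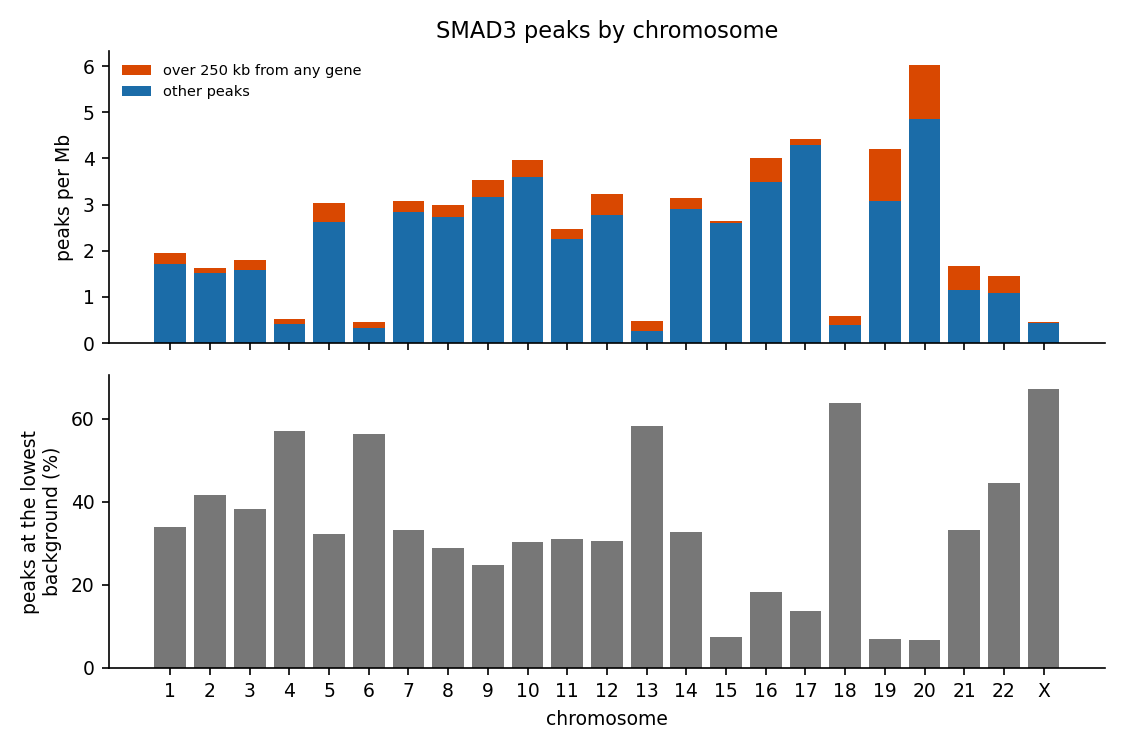
SMAD3 peaks per Mb on chromosomes 1 to 22 and X, split into peaks over 250 kb from any gene and other peaks (upper bars), and the share of each chromosome's peaks (%) at the lowest implied input background (lower bars). Chromosome 20 is densest at 6.03 per Mb, and the 5 chromosomes with 0.468 to 0.586 per Mb have 56.2 to 67.1% of their peaks at the lowest background.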

How the data were processed

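The series holds 4 libraries, and the SMAD3 ChIP and its input, which gave 1 peak list, were used here. FastQC 0.11.8, Bowtie2 and MACS2 2.2.7.1 on hg38 are named in the submitters' processing notes. Per the file headers, 20307213 ChIP and 19317284 input tags of 129 bp were reduced to 1 per position, and peaks were called on single-end tags with a p cutoff of 0.0065, the larger library scaled to the smaller, and background over 1000 and 10000 bp. The deposited values are a pileup signal in tags, fold enrichment (a ratio), −log10 p and −log10 q. The headers say that q would not be calculated, yet the deposited −log10 q column holds values, used as they stand.

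The implied background is pileup plus 1, divided by fold, minus 1. Backgrounds within 0.005 tags were counted as equal. Summits were placed with Python 3.11.15, numpy 2.4.6, pandas 2.3.3 and scipy 1.17.1 against 20037 protein-coding genes of RefSeq GRCh38.p14. Start sites came from 22199 promoter entries of 15843 such genes, and no entry on chromosome 8 was used. The placement code was checked on simulated data. Members and lists were chosen with earlier results of these data known. Named genes are those at the 25 highest-pileup and 10 highest-fold peaks, the 15 highest peaks near genes over low input, list members with a q under 0.05 or else up to 3 per list by fold, and fixed genes including SMAD2, SMAD3, SMAD4, SMAD7, ATOH8, CDKN1A and IL33. Some genes covered by that rule are not reported here, and other genes were named after their values were seen.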

Additional observations from a re-analysis of the deposited data

How the results depend on the processing

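No test was run, so alternatives can only move a value. The number of peaks, 7184, fell to 567 at a q under 0.05, to 85 for −log10 q from 5 upwards, and to 77 for folds from 5 upwards. The share inside protein-coding genes, 41.3%, was 15% at a q under 0.05, 54.1% with all annotated genes and 42.7% with an implied background under 5 tags. The share within 1 kb of a start site, 2.57%, was 1.34% within 500 bp, 5.18% within 3 kb, 0.777% at a q under 0.05 and 3.97% for either end of a gene. The share over 250 kb from any gene, 11.9%, was 55.6% at a q under 0.05, 14.2% beyond 100 kb and 9.96% with an implied background under 5 tags. At a q under 0.05 the median pileup was 12 tags instead of 7 and the median length 239 bp instead of 219. Of the 25 highest-pileup peaks, 1 remained when ranked by fold, 0 with an implied background under 5 tags and 4 within 10 kb of a protein-coding gene. Of 57 list genes with a peak, 1 was left at a q under 0.05, and of all 3224 protein-coding genes with a peak, 123. Within 1 kb instead of 10 kb, counts in 4 of 12 lists moved by over 1.5 times. The use of gene ends, of low background for the distant share and of a ranking without distant peaks was chosen after seeing the data. In each case the cause was not tested. Of all peaks, 86.6% rest on 5 to 9 tags, and no other depth was tried. No paired analysis was possible because each group holds 1 library.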

Other observations

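SMAD3 peaks also came in runs. On chromosomes 1 to 22 and X, 761 of 6972 peaks (10.9%) belonged to 352 runs whose neighbouring summits were at most 10000 bp apart, and 45 runs had 3 peaks or more. The longest, with 6 peaks, was IL33. The 2 runs of 5 peaks lay on chromosome 21 (8244660 to 8259921, 23 to 38 tags, 1.89- to 2.27-fold) and chromosome 3 (91759837 to 91782994, 7 to 23 tags, 2.45- to 3.53-fold, 2090 kb from PROS1). Of the 45 runs, 11 touched a protein-coding gene. Besides IL33 and LOC102724250 these included PKM, which encodes the glycolytic enzyme pyruvate kinase (3 peaks between 72215047 and 72224705 of chromosome 15, 6 to 11 tags, 1 with a q under 0.05), TALDO1, a pentose phosphate pathway gene (3 peaks of 6 to 9 tags), and CYTH1 (3 peaks of 5 to 7 tags), all named after their values were seen.

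Outside the assigned chromosomes the list held 203 peaks on unplaced and alternate sequences and 2 on mitochondrial DNA. Their median pileup was 9 tags, and 40 of the 205 had a q under 0.05, beside 567 of 7184 in the whole list. The highest pileup of the whole list, 402 tags, was among them, on an implied background of 352 tags and at 1.14-fold, the lowest fold in the list. Of 77 peaks of 5-fold or more, 1 lay on such a sequence.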
